A study of Peromyscus maniculatus with 16 samples.

Results

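Genes of T, B and natural killer (NK) lymphocytes were followed in RNA from the livers of 16 deer mice (Peromyscus maniculatus). The members were 50 genes chosen by name for their known roles in lymphocytes, namely antigen receptor chains and co-receptors, the kinases and adaptors that signal from them, lymphocyte transcription factors, cytokine receptors and the products of cytotoxic cells. Of these, 46 were among the 16910 genes of the count table, and 32 had a mean of at least 5 reads per animal and are called measured below. The other 14 (Ms4a1, Cd22, Blk, Pax5, Pou2af1, Cd247, Cd28, Cd5, Ikzf3, Runx3, Tbx21, Gata3, Eomes and Lef1) had fewer reads than that, and Cd4, Cd8a, Il2rg and Gzmb had no line of their own. Nearest to the limit were Pax5 (4.81 reads) and Cd5 (3.81) below it and Cd79b (5.31) and Cd3d (5.44) above it, and the highest count of the 14 in any animal was 14 reads, of the B cell factor gene Ikzf3 in S animal 35955.

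Lymphocytes recognise antigen through receptors that cannot signal alone. In B cells, the membrane immunoglobulin passes its signal through the CD79 pair, the products of Cd79a and Cd79b, to Syk, Btk and the adaptor Blnk. In T cells, the CD3 chains pass it to Lck and Zap70 and on to the adaptors Lat and Lcp2. The liver holds resident and circulating lymphocytes, with many NK and CD8 T cells, beside its own macrophages, the Kupffer cells.

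The control group (C) held 6 males on regular chow. The other 10 animals received a high fat diet (HFD) of 58 kcal% fat with sucrose, and were divided by the presence of steatosis on histology into 5 males without it (NS) and 5 animals with it (S). S held 2 males (10880 and 36016) and 3 females (35955, 35982 and 35990), so that sex and steatosis are partly the same division. A model with sex as a covariate takes S from the 2 S males, as a run on males alone does. Those 2 runs are therefore not independent of each other. All animals started the diets at 3-4 months of age, stayed on them for 28 weeks and were 10 months old at the end. BW animals (13, P. m. bairdii) come from a closed but outbred captive colony, and each group also held 1 SM2 animal (P. m. sonoriensis), 10876 in C, 10865 in NS and 10880 in S. Each number stands for 1 animal, 1 liver and 1 library.

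The libraries held 4640733 to 11349971 counted reads, and the present members together took 0.0113 to 0.0375% of them, so that most lymphocyte genes rest on few reads per animal. Levels are given as CPM, read counts scaled to a common library size with TMM factors. They are compared between animals and not between genes, because no lengths were applied. In whole liver RNA, fewer cells of a type and less RNA per cell cannot be told apart. The label of the module was borne out in part: chains of the B and the T cell receptor (Cd79a, Cd3e, Cd3g) and a cytotoxic granule gene (Gzma) had reads in all 16 animals, whereas the B cell gene Ms4a1 (CD20) had 0 to 9 reads and was at 0 in 4 animals, and the T cell co-stimulatory receptor gene Cd28 had reads in only 2 animals.

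One library stood apart in these genes. S animal 35990 was the highest of all 16 animals for 10 of the 32 measured members, and also for the summed level of 10 Kupffer cell and macrophage markers (1310 CPM, against 691 in the next animal) and of 7 dendritic cell and class II genes (510 against 136). In C, animal 35998 was the highest of its group for 22 members and the SM2 animal 10876 the lowest for 11. The plot of all measured members by animal shows these columns. For the medians of the members, Lcp1 and Ptprc, values with and without 35990 are given.

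**Figure D1:**
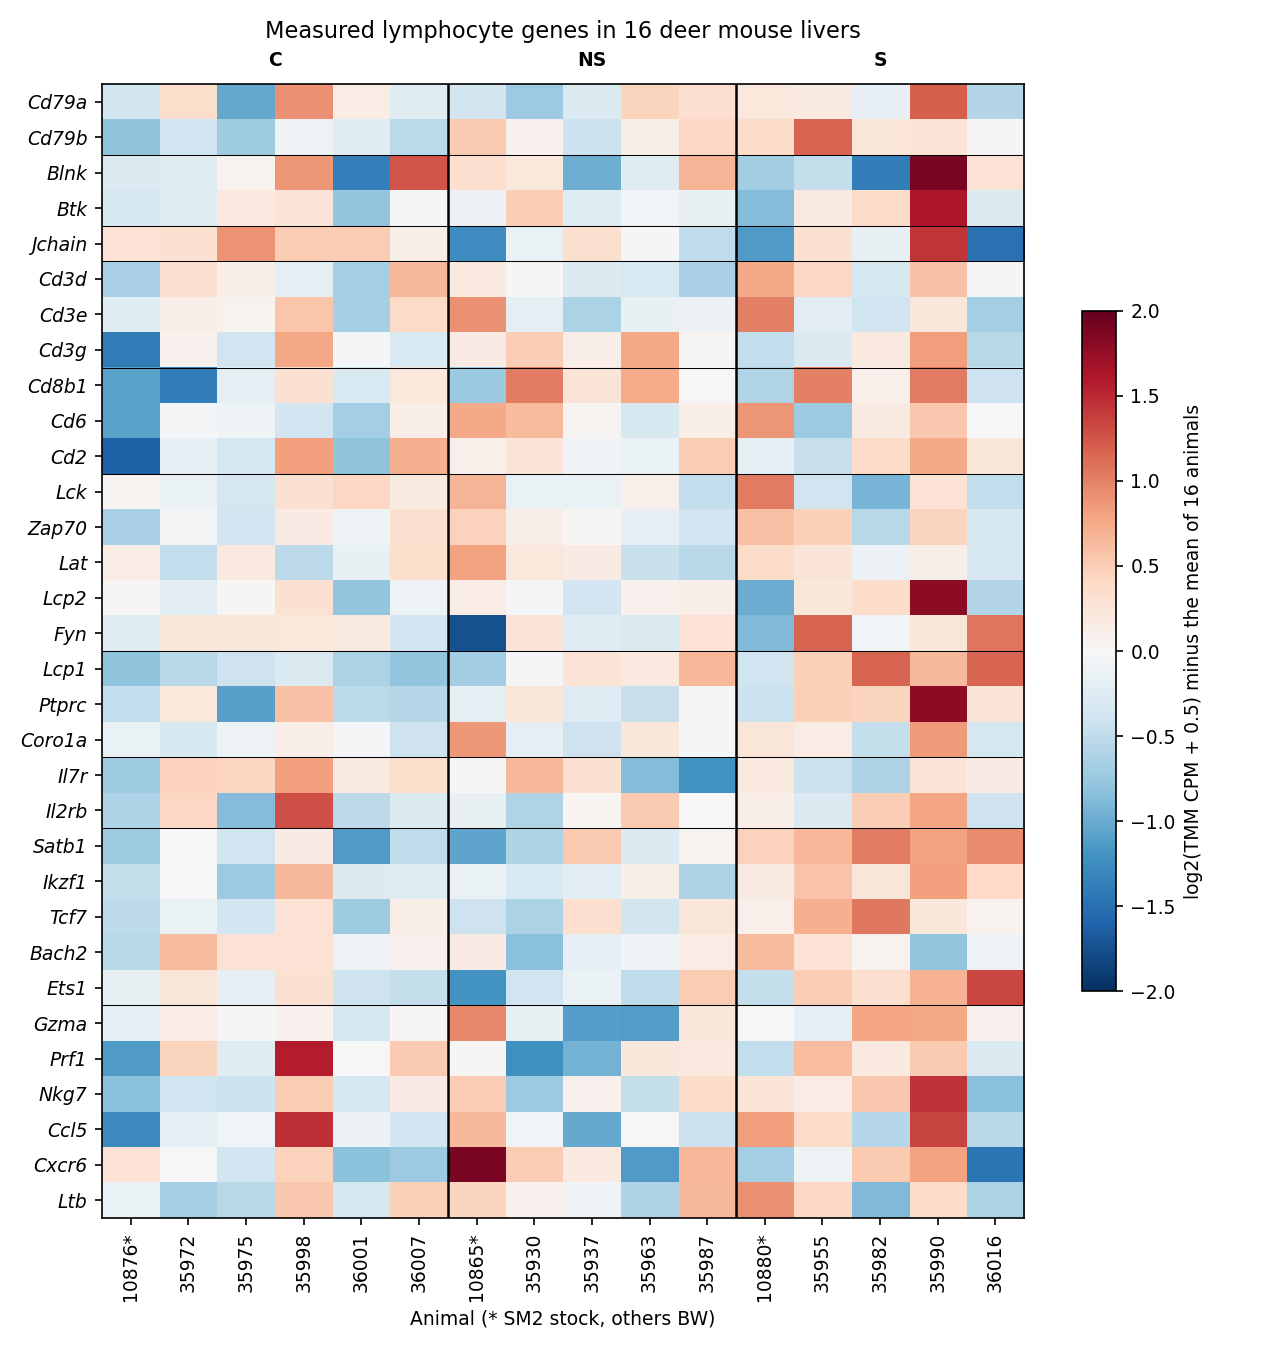
Level of the 32 measured lymphocyte genes (rows, in blocks by role) in each animal (columns, grouped as C, NS and S; * marks SM2), as log2(TMM CPM + 0.5) minus the mean of the 16 animals. The column of S animal 35990 is red for most genes, the row of Satb1 is red in all 5 S animals and the row of Lcp1 is blue in all 6 C animals.

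The first question was which lymphocyte genes differed between the livers with steatosis and those of the controls. Of the 32 measured members, 3 rose in S vs C at an adjusted p under 0.1 and a fold of at least 2, the limits of the study: Lcp1, Satb1 and Cd79b. That is 9.38% of the measured members, against 3.09% of all 12639 genes tested, and 0 members fell (0.965% of all genes). The share counts Cd79b, which reached the limit of 5 reads only through the animals on HFD, and without Cd79b 2 of 31 members were called (6.45%). No CD3 chain, T cell receptor kinase, cytokine receptor or cytotoxic gene passed the test. At an unadjusted p under 0.05, 6 members were higher (18.8%, against 13.1% of all genes), with Ptprc, Tcf7 and Ets1 beside those 3. Without Cd79b they were 5 of 31 (16.1%). The median log2 fold change of the measured members was 0.432, with 27 above 0 and 5 below, and that of all genes was 0.1. This median was 0.136 when 35990 was left out, beside 0.070 for all genes, and 0.153 with sex as a covariate or in males alone. In BW animals without 35990 its sign turned, to -0.017. Cd79b, Cd3d, Cd6 and Nkg7, all above 0 in S vs C, had means under 5 reads in C. They count as measured only through animals on HFD, and Cd3d (3.8 reads in NS) only through S. The medians and the count above 0 were not calculated without these genes.

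Lcp1 encodes L-plastin, an actin-bundling protein of all leukocytes, and it supplied 28.8 to 57.4% of the reads of the measured members in an animal. It was at 39.6, 47.1, 51.6, 56.6, 44.6 and 39.9 CPM in C (10876, 35972, 35975, 35998, 36001 and 36007), at 42.7, 68.0, 83.6, 79.3 and 110 in NS (10865, 35930, 35937, 35963 and 35987) and at 52.3, 96.2, 155, 108 and 156 in S (10880, 35955, 35982, 35990 and 36016). The lowest animal of NS and of S was the SM2 animal, and among BW animals every NS and every S value lay above every C value. The rise in S vs C was 1.29 on the log2 scale (SE 0.25, adjusted p = 0.019, edgeR's quasi-likelihood test). It passed the threshold in 26 of 26 alternatives, with log2 fold changes of 1.14 to 1.51. In NS vs C the difference was 0.72 (SE 0.25, adjusted p = 0.51), and in BW animals alone 0.82 (SE 0.18, adjusted p = 0.23).

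Satb1 encodes a chromatin organiser that T cells need during their development in the thymus. Its levels were 1.58, 2.89, 2.08, 3.28, 1.04 and 1.89 CPM in C, 1.14, 1.70, 4.34, 2.29 and 3.06 in NS and 4.14, 4.88, 6.49, 5.44 and 6.01 in S, in the order of animals just given. Every S animal was above every C animal, and 1 NS animal (35937) reached into the range of S. The rise in S vs C was 1.35 (SE 0.35, adjusted p = 0.043, edgeR). It kept that call when any 1 animal was left out. The call was lost with sex as a covariate (1.26, adjusted p = 0.115) and in males alone (1.26, adjusted p = 0.159). Both runs take S from its 2 males.

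Cd79b encodes one of the CD79 chains of the B cell receptor. It is the measured member with the fewest reads, with 1, 2, 1, 3, 4 and 2 reads in C, 8, 5, 2, 5 and 9 in NS and 7, 21, 4, 8 and 3 in S, or 0.098 to 0.469 CPM in C, 0.271 to 1.01 in NS and 0.563 to 1.83 in S. S and C did not overlap in CPM, and NS reached down into C in 1 animal (35937). The rise in S vs C was 1.83 (SE 0.51, adjusted p = 0.055, edgeR), a fitted value that depends on the few reads of C. Its mean in C was 2.17 reads, under the limit for a measured member. Its call was lost with sex as a covariate (1.40, adjusted p = 0.23), in males alone (1.40, adjusted p = 0.26) and without C animal 35975 (adjusted p = 0.117), C animal 36007 (0.113) or S animal 35955 (0.129). In NS vs C the difference was 1.34 (SE 0.52, adjusted p = 0.53).

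**Figure D2:**
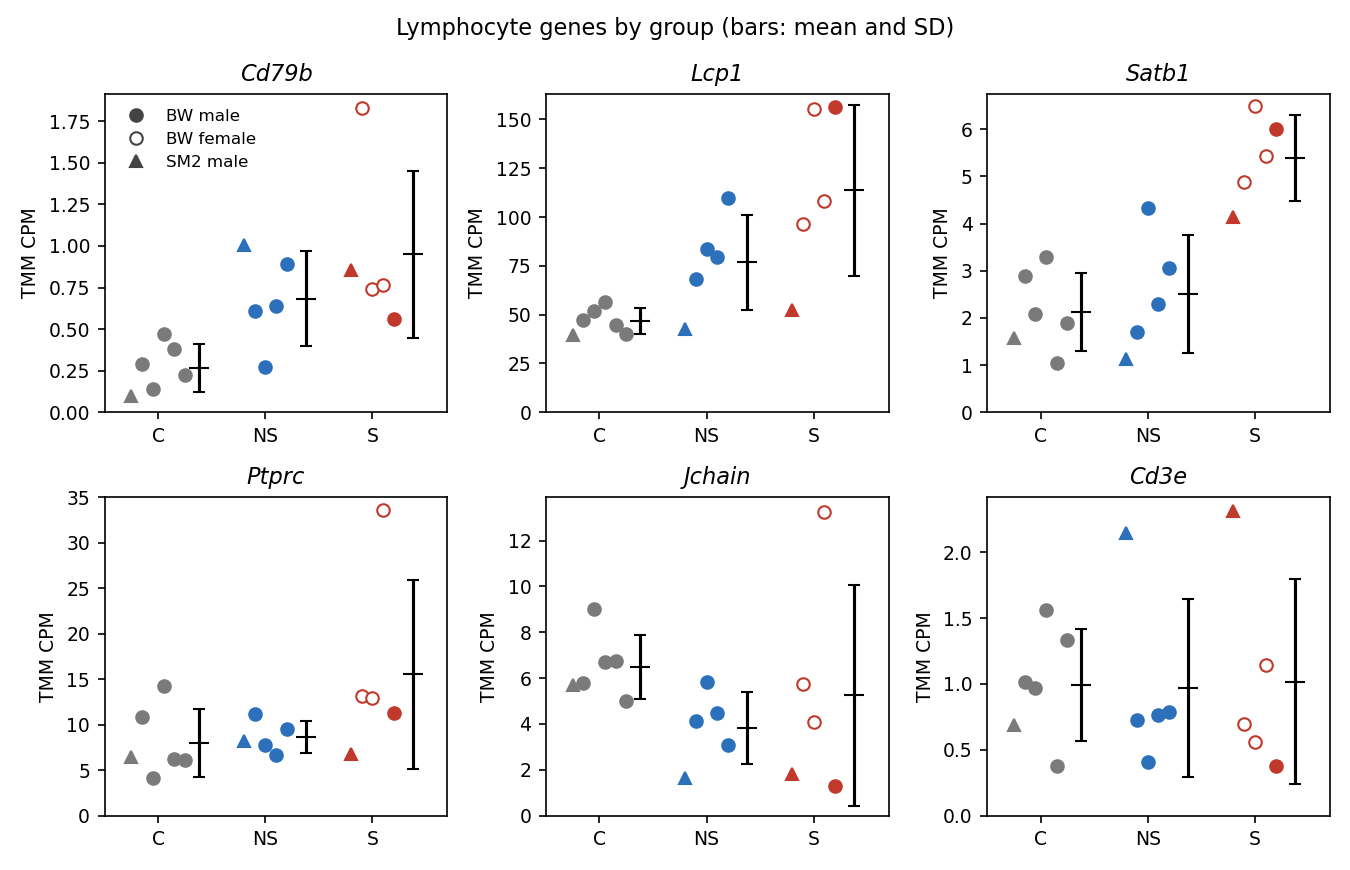
TMM CPM of 6 lymphocyte genes in each animal by group (C, 6 animals; NS and S, 5 each), with the mean and SD to the right of the points; open circles are females and triangles SM2 animals. For Cd79b and Satb1 every S animal lies above every C animal, for Lcp1 the SM2 animal of S lies within the range of C, and for Ptprc, Jchain and Cd3e the groups overlap.

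The CD79 chains work as a pair, and the other chain, Cd79a, did not pass the test. Cd79a was at 1.38, 2.6, 0.693, 4.07, 2.18 and 1.55 CPM in C, at 1.39, 0.970, 1.49, 2.81 and 2.57 in NS and at 2.31, 2.27, 1.67, 5.05 and 1.13 in S, and the groups overlapped widely (S vs C 0.29, SE 0.45, adjusted p = 0.74). For 1 read of Cd79a there were 0.071 to 0.2 reads of Cd79b in C, 0.182 to 0.727 in NS and 0.151 to 0.808 in S. Over the group, C had 13 reads of Cd79b and 100 of Cd79a, NS 29 and 78, and S 43 and 113. The ratio was looked at after the values of Cd79b were seen, so it is a description with no test. On HFD, 8 of 10 animals lay above 0.2, the highest value in C, and 35937 (0.182) and 35990 (0.151) did not.

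**Figure D3:**
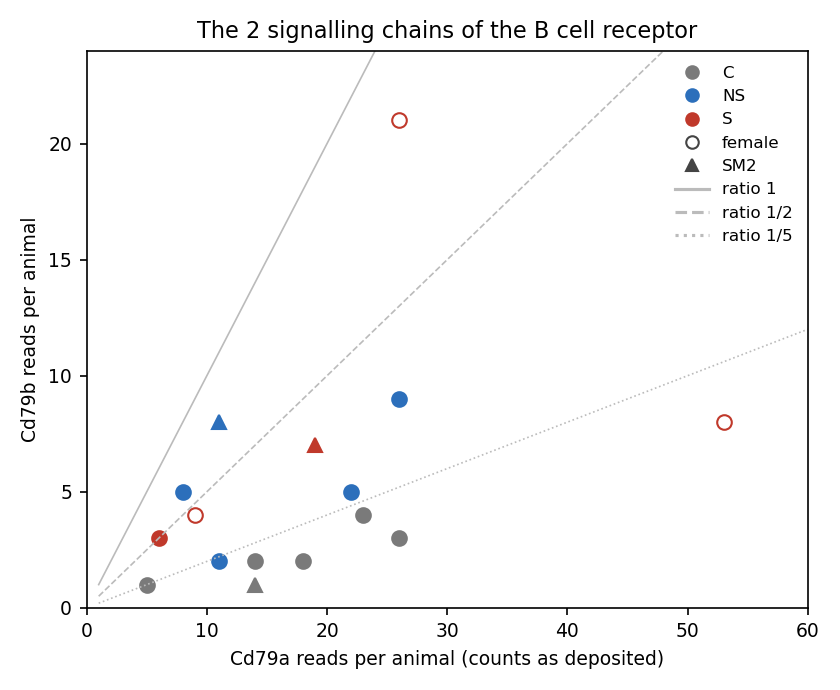
Reads of Cd79b (vertical) against reads of Cd79a (horizontal) in each of the 16 animals, as deposited, coloured by group; grey lines mark ratios of 1, 1/2 and 1/5. The 6 C animals lie on or under the line of 1/5, with 1 to 4 reads of Cd79b, and S animal 35955 has 21.

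Among the other B lineage members, Btk, the kinase downstream of the B cell receptor, had a difference of 0.66 (SE 0.40, adjusted p = 0.32) and the adaptor gene Blnk of 0.20 (SE 0.73, adjusted p = 0.90) in S vs C, and both were highest in 35990 (11.2 and 6.20 CPM). Jchain encodes the chain that joins secreted IgM and IgA into multimers and is made by plasma cells. It was at 5.71, 5.78, 9.02, 6.72, 6.74 and 4.99 CPM in C, at 1.64, 4.12, 5.83, 4.46 and 3.06 in NS and at 1.83, 5.76, 4.08, 13.3 and 1.31 in S. The 2 S males (1.83 and 1.31) were below all C animals, and the 3 S females (4.08 to 13.3) overlapped them. The difference in S vs C was -0.28 (SE 0.45, adjusted p = 0.74). As a fall it was past the threshold with sex as a covariate (-2.02, adjusted p = 0.044) and in males alone (-2.02, adjusted p = 0.036), both resting on the 2 S males. In NS vs C it was -0.76 (SE 0.46, adjusted p = 0.69).

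Antigen receptor constant genes are no members, and were looked up after the symbols of the table were known. Ighm (IgM heavy chain), Igkc (kappa light chain), Ighg3 and Trac (T cell receptor alpha chain) were measured, and 0 of the 4 passed the test in any of the 3 comparisons. Ighm was at 3.64 to 18.2 CPM in C, 2.18 to 19.0 in NS and 5.44 to 52.5 in S (S vs C 1.10, SE 0.60, adjusted p = 0.27). Trac was at 1.08 to 1.88 CPM in C, 0.950 to 3.40 in NS and 0.939 to 3.75 in S (S vs C 0.52, SE 0.42, adjusted p = 0.46).

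The T cell receptor complex showed no difference between groups that passed the test. Cd3e, a signalling chain present on every T cell, was at 0.689, 1.01, 0.971, 1.56, 0.380 and 1.33 CPM in C, at 2.14, 0.728, 0.407, 0.765 and 0.790 in NS and at 2.31, 0.698, 0.556, 1.14 and 0.375 in S. The 2 highest animals were the SM2 animals of the HFD groups, and without regard to stock the groups overlapped fully (S vs C 0.08, SE 0.53, adjusted p = 0.95). Log2 fold changes in S vs C were 0.56 for Cd3d and 0.20 for Cd3g. Cd8b1, the beta chain of the CD8 co-receptor of cytotoxic T cells, and Cd6, a surface receptor of T cells, had differences of 0.98 and 0.96 in S vs C and of 0.93 and 1.01 in NS vs C, with adjusted p of 0.31 to 0.71. Cd2, an adhesion receptor of T and NK cells, was at 0 in C animal 10876 and at 0.380 to 2.19 CPM in the other 15 animals, with a difference of 0.33 in S vs C. The kinases and adaptors downstream ranged from -0.02 (Lck) over 0.15 (Lat), 0.43 (Zap70) and 0.45 (Fyn) to 0.66 (Lcp2). Lcp2, whose product SLP-76 also serves myeloid cells, was at 3.04 to 7.04 CPM in C, 4.21 to 6.30 in NS and at 2.56, 6.63, 7.41, 20.7 and 3.57 in S, where 35990 stood far above the rest and 10880 was the lowest of all animals.

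Ptprc, which encodes the leukocyte-wide phosphatase CD45, was at 6.50, 10.8, 4.16, 14.2, 6.26 and 6.10 CPM in C, at 8.19, 11.2, 7.73, 6.63 and 9.48 in NS and at 6.82, 13.2, 12.97, 33.6 and 11.26 in S. One S animal, 35990, was more than 2 times higher than any other, and the others lay within the range of C. The difference in S vs C was 0.97 (SE 0.36, adjusted p = 0.117). In BW animals it passed the threshold (1.11, adjusted p = 0.085), and without 35990 among them it did not (0.60, adjusted p = 0.26). Coro1a, an actin regulator of leukocytes, differed by 0.31 (SE 0.26, adjusted p = 0.48).

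Of the 5 measured transcription factors, Satb1 alone passed the test in S vs C. Tcf7, the T cell factor TCF1, was at 3.42 to 7.35 CPM in C, 3.64 to 7.60 in NS and 6.19 to 12.8 in S (0.71, SE 0.28, adjusted p = 0.134). Ets1, a factor of T, B and NK cells and of endothelium, was at 10.6 to 18.6 in C, 6.30 to 21.5 in NS and 10.6 to 38.7 in S (0.69, SE 0.30, adjusted p = 0.18). Ikzf1, which encodes Ikaros, a factor needed for all lymphocytes, was at 0.416 to 1.88 in C, 0.494 to 1.15 in NS and 1.22 to 2.19 in S (0.83, SE 0.40, adjusted p = 0.22). For these 3 genes S and C overlapped. Bach2, a repressor that keeps lymphocytes from terminal differentiation, differed by -0.06 (SE 0.33, adjusted p = 0.94).

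The cytotoxic genes were led by single animals. Gzma, the granule protease granzyme A, was at 0.569 to 1.01 CPM in C, at 2.14, 0.728, 0.136, 0.128 and 1.09 in NS and at 0.853, 0.698, 1.85, 1.81 and 0.939 in S, where NS spanned both ends. Prf1 (perforin) and the chemokine gene Ccl5 were highest in C animal 35998 (4.69 and 6.10 CPM), Nkg7 in S animal 35990 (2.86 CPM) and the homing receptor gene Cxcr6 in NS animal 10865 (4.66 CPM). In S vs C, log2 fold changes of the 6 cytotoxic and homing genes lay between -0.29 (Prf1) and 1.05 (Nkg7), and 0 passed the test. Ltb, a lymphotoxin chain by which lymphocytes act on lymphoid stroma, is among these 6 with 0.31. The interleukin receptor genes Il7r and Il2rb differed by -0.49 and 0.16 (adjusted p = 0.61 and 0.88).

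**Figure D4:**
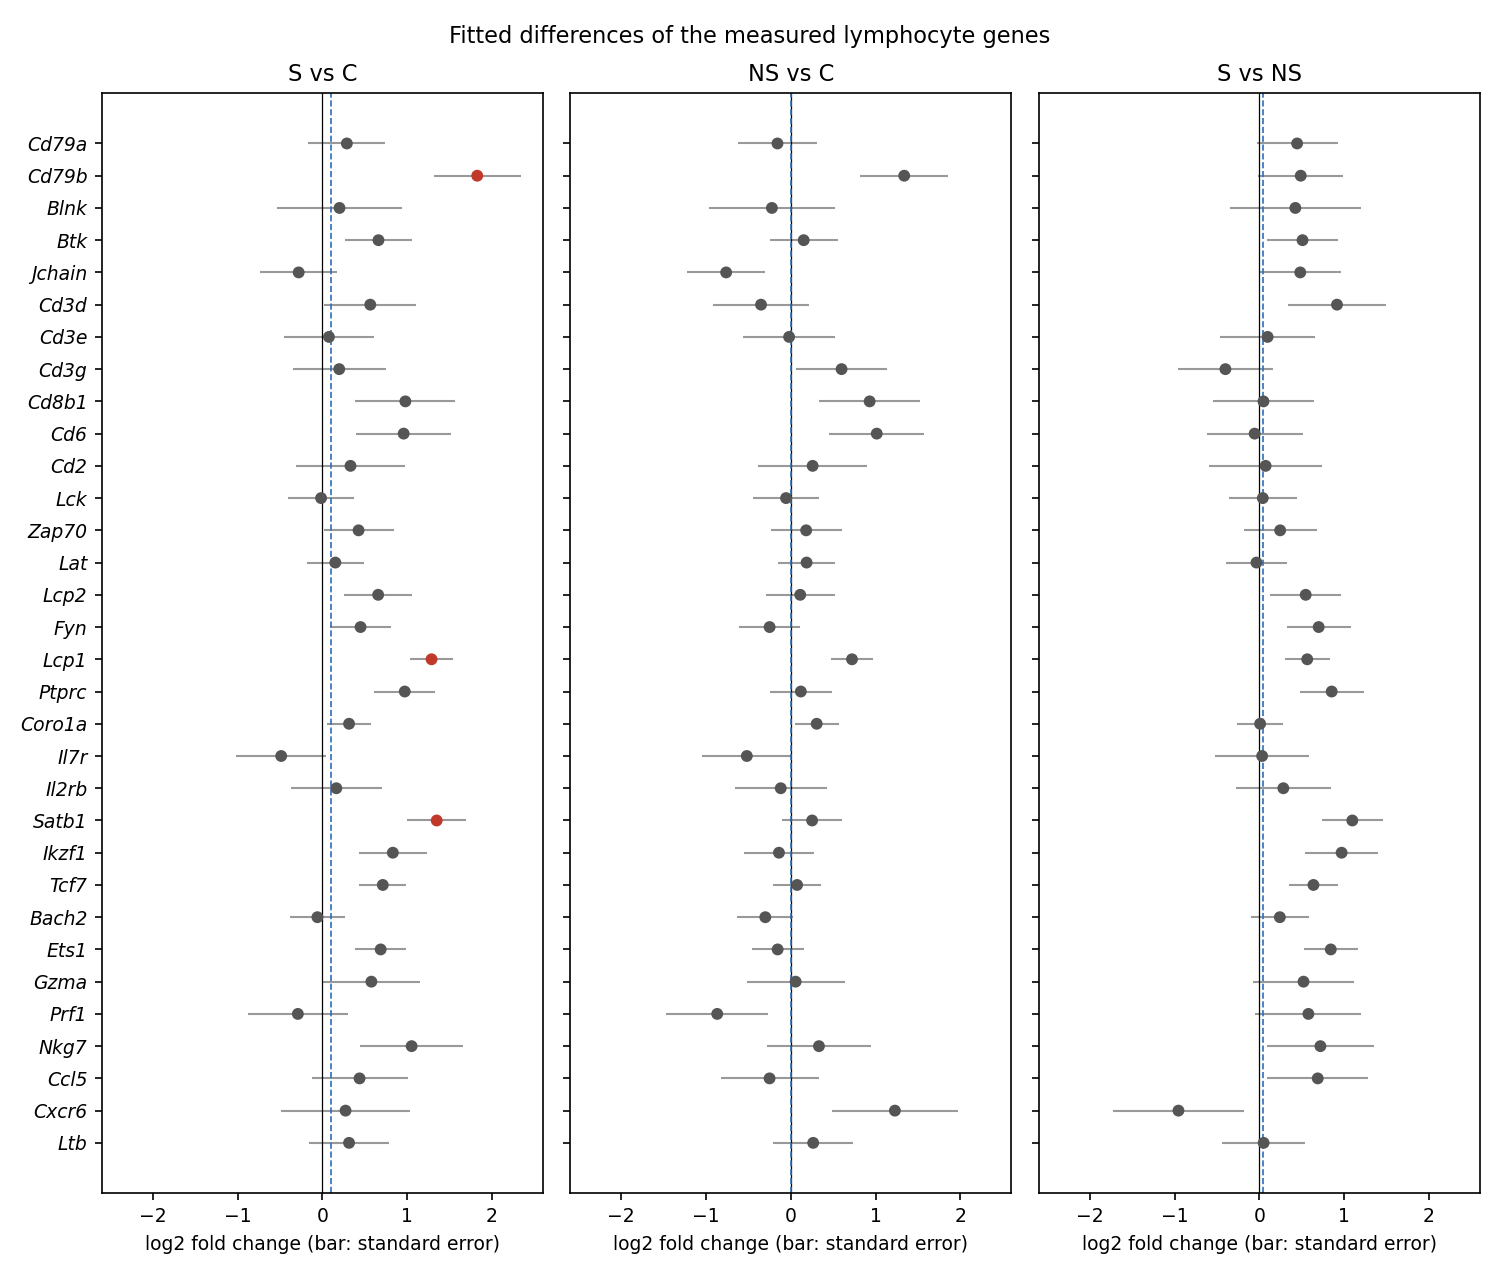
Log2 fold change of each measured lymphocyte gene in the 3 comparisons (points, with the standard error as a bar); red points have an adjusted p under 0.1 and the dashed line is the median of all genes tested. Red points are Cd79b, Lcp1 and Satb1 in S vs C, and the other panels hold 0.

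The next question was whether HFD without steatosis, or steatosis among animals on HFD, went with a difference in these genes. In NS vs C, 0 of 32 members were called with edgeR (0.0712% of all genes, in either direction) and 0 with DESeq2, which gave no adjusted p for 9 of them. At an unadjusted p under 0.05, 2 were higher, Cd79b and Lcp1 (6.25%, against 5.32% of all genes). Cd79b counts as measured only through HFD, and without it Lcp1 alone was left. The median log2 fold change was 0.092, beside 0.007 for all genes. In S vs NS, 0 of 32 were called with edgeR (0.00791% of all genes) and 0 with DESeq2, with no adjusted p for 4. At an unadjusted p under 0.05, 6 were higher, Lcp1, Ptprc, Satb1, Ikzf1, Tcf7 and Ets1 (18.8%, against 6.19% of all genes), and 0 were lower. S vs NS is also the test of whether the differences of S and NS from C differ from each other, and for Satb1 it gave 1.10 (SE 0.36, adjusted p = 0.33). For Lcp1 it gave 0.57 (SE 0.26, adjusted p = 0.45) and for Cd79b 0.49 (SE 0.50, adjusted p = 0.74). The median of the members in S vs NS was 0.465, and 0.037 without 35990. It includes Cd3d (0.92), which counts as measured only through S, and was not calculated without it.

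As a description that needs no model, groups were set side by side in CPM. In S vs C, 2 of 32 members had all S animals above all C animals (Cd79b and Satb1), against 1.86% of all genes. Without Cd79b, which counts as measured only through HFD, this is 1 of 31. In S vs NS 1 had all S above all NS (Ikzf1), against 0.427% of all genes. Ikzf1 was at 0.882, 0.728, 0.814, 1.15 and 0.494 CPM in NS and at 1.22, 1.74, 1.30, 2.19 and 1.502 in S, and its difference in S vs NS was 0.97 (SE 0.43, adjusted p = 0.43).

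Stock was tested with the group in the model, and 5 members passed an adjusted p under 0.1 in SM2 vs BW animals. Only Lck, the first kinase of the T cell receptor, was higher in SM2 (3.12% of the measured members, against 11.9% of all genes), and Cd8b1, Fyn, Lcp1 and Ets1 were lower (12.5%, against 9.85% of all genes), and neither share was tested against that of all genes. Fyn, a kinase related to Lck that many other cells also use, was at 10.8, 3.53 and 6.82 CPM in SM2 animals 10876, 10865 and 10880, and at 9.76 to 29.6 in the 13 BW animals (-1.17, SE 0.31, adjusted p = 0.019, edgeR). Lck was at 2.66, 4.41 and 5.85 CPM in the SM2 animals and at 1.11 to 3.61 in BW (0.87, SE 0.33, adjusted p = 0.082), so that SM2 was above BW on HFD and within its range on chow. Cd8b1 was at 0.295, 0.504 and 0.609 CPM in SM2 and at 0.144 to 2.96 in BW (-1.78, SE 0.59, adjusted p = 0.049). Lcp1 differed by -0.81 (SE 0.21, adjusted p = 0.014) and Ets1 by -0.77 (SE 0.29, adjusted p = 0.089). With 3 SM2 animals, 0 of the 5 passed without 10865 and 0 without 10880. All SM2 animals are male and all females are BW, and in males alone Lck and Cd8b1 did not pass. How well reads of either stock align to the reference was not tested.

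**Figure D5:**
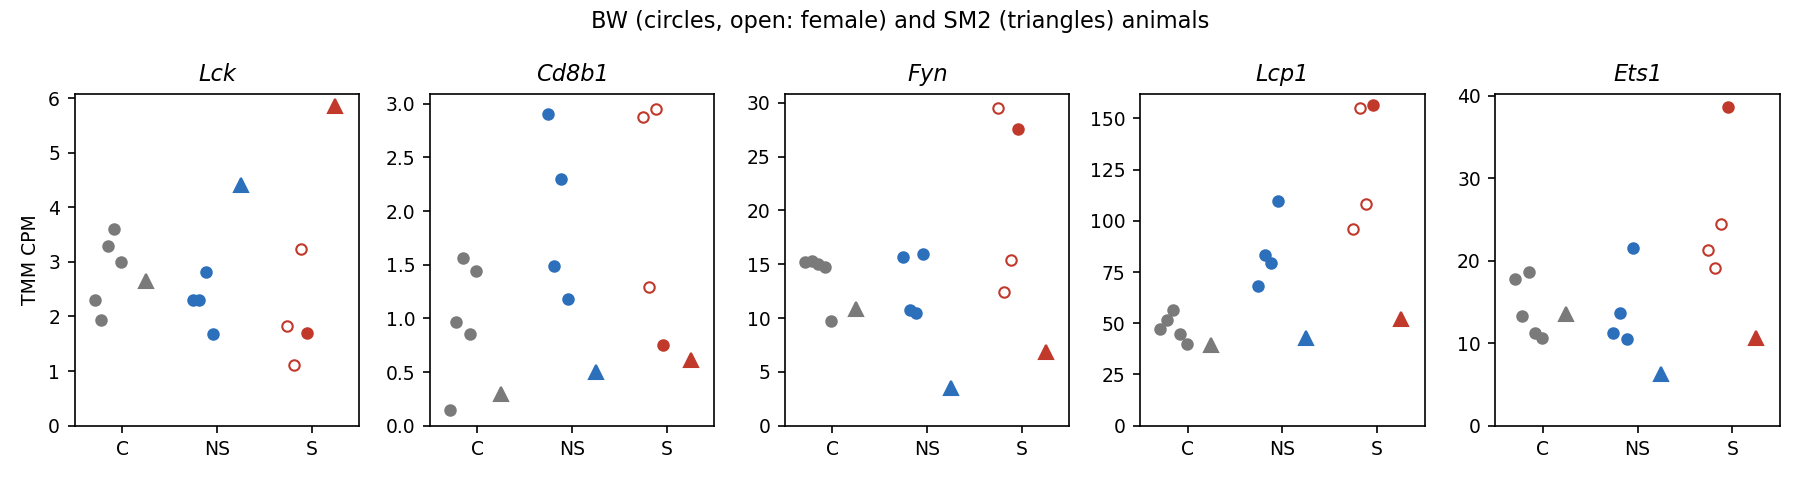
TMM CPM of the 5 members that differed by stock, in BW animals (circles, open for females) and the SM2 animal (triangle) of each group. Lck lies above the BW animals in NS and S, Fyn and Lcp1 lie below them in NS and S, and for Cd8b1 and Ets1 the SM2 animal of C lies within the range of the BW animals of C.

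Genes of the same pathways that are no members gave the setting. Of 22 measured genes of antigen receptor signalling, 4 had an adjusted p under 0.1 in S vs C, all higher (5.39% of all genes were higher at that limit): Lyn (0.69, adjusted p = 0.080), Syk (1.34, adjusted p = 0.083), Nfatc1 (0.70, adjusted p = 0.088) and Plcg2 (0.65, adjusted p = 0.097). Lyn, Syk and Plcg2 act below the B cell receptor and also in macrophages and other myeloid cells, and Nfatc1 is a calcium-regulated transcription factor. Syk spanned 2.44 to 22.9 CPM in S and 2.56 to 5.78 in C, and no run without single animals is given for the 4. In the other comparisons 0 of the 22 passed. Of 20 other B and plasma cell genes 5 were measured, and of 26 other T and NK cell genes 5, and 0 of these passed in any of the 3 comparisons.

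Markers of other liver cells moved in part with the same groups. All 10 Kupffer cell and macrophage markers were above 0 in S vs C (0.02 to 0.83) and 0 passed the test; their summed level was 340 to 691 CPM in C, 346 to 670 in NS and 267 to 1310 in S. The class II and dendritic cell genes summed to 86.0 to 136 CPM in C, 59.6 to 134 in NS and 60.1 to 510 in S, and 0 of 7 passed. Of 4 neutrophil and monocyte markers, S100a8 (-1.98, adjusted p = 0.045) and S100a9 (-1.77, adjusted p = 0.050) were lower in S vs C, and the sum of the 4 was 27.0 to 79.0 CPM in C, 10.2 to 56.8 in NS and 5.32 to 25.3 in S. Of 11 endothelial and stellate markers 1 passed (Col1a1, led by S animal 36016 at 2060 CPM), and of 6 proliferation markers Top2a (3.78) and Cdk1 (1.98) did. Top2a spanned 0.61 to 35.9 CPM in S and 0.156 to 1.44 in C. Cdk1 spanned 0.436 to 7.25 in S and 0.295 to 0.949 in C, so that S overlapped C for both. Of 7 hepatocyte markers Fgb (-0.66) and Ttr (-0.66) were lower and Apoa1 (0.96) higher. The only measured erythroid marker and 3 markers of lymphoid stroma did not pass. Since Lcp1 and Ptprc are expressed by macrophages as well as lymphocytes, these sums belong beside their values, and the part of other cells in them was not tested. In BW animals without 35990, a run that leaves out the SM2 animals too, Lcp1 was higher in S vs C (1.51, adjusted p = 0.0041, edgeR). That run does not test the part of other cells in Lcp1.

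Whether lymphocyte genes vary together across livers was looked at in 6 pairs of marker genes over all 16 animals. Cd3e and Cd3d, chains of the same complex, had Pearson's r = 0.615 (permutation test, adjusted p = 0.070) and Spearman's rho = 0.647 (adjusted p = 0.051), and r = 0.520 without the 2 animals farthest from the median of Cd3e. After subtraction of the group means r was 0.684 (permutation, adjusted p = 0.021), and in BW animals alone it was 0.533 (permutation, adjusted p = 0.33), so that an adjusted p under 0.1 was not reached without the SM2 animals. The other pairs had lower r, of 0.336 for Cd79a and Cd79b, 0.254 for Cd79a and Cd3e, 0.431 for Cd3e and Gzma, 0.332 for Cd79a and Jchain and 0.012 for Cd3e and Ptprc, with adjusted permutation p of 0.29 to 0.96. All these genes share each library's depth, and counts of 2 to 19 reads for Cd3e limit what such a correlation can reach.

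Pc, the measure of coordination that the study uses, compares between 2 groups the correlations of a gene with every other gene, and a value below -0.2 marks a gene whose correlations are inverted. The scale of the values that entered Pc is not given in the sources used here, so it was calculated on 2. On the counts as deposited, 4 of 32 members were below that limit in S vs C (Satb1, Bach2, Ets1 and Cxcr6, against 2.6% of all genes), 2 in NS vs C (Bach2 and Ccl5, against 2.92%) and 1 in S vs NS (Ikzf1, against 3.53%). On CPM by total count they were 9 in S vs C (Cd3e, Cd6, Zap70, Lcp2, Coro1a, Bach2, Ccl5, Cxcr6 and Ltb, against 6.05% of all genes), 6 in NS vs C (against 5.73%) and 2 in S vs NS (against 7.32%). Bach2 (-0.202 on counts, -0.203 on CPM) and Cxcr6 (-0.261 and -0.227) were below the limit on both scales in S vs C. Bach2 was only just past it, and in BW animals alone it was not below the limit on either scale. On either scale the number of members moved with the animals included. On counts, the 4 in S vs C became 1 without 10876, 1 without 10880 and 2 in BW animals alone. On CPM, the 9 in S vs C became 2 without C animal 35998, were 6 to 11 without any other 1 animal, and were 14 in BW animals alone. The 6 in NS vs C became 3 without 10876 or without 10865. The share of all genes was not calculated for these runs with fewer animals, so the 14 has no share to be set beside. Pc rests on 5 or 6 animals a group and has no test here.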

How the data were processed

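RNA from 16 livers was sequenced. The authors aligned paired-end reads to HU_Pman_2.1 with STAR 2.7.2, assigned uniquely mapped reads to Ensembl genes with featureCounts, and deposited raw counts per gene symbol. The strand setting of the counting and the conversion to symbols are not given in the sources used here. In another assembly (HU_Pman_BW_mat_3.1, RefSeq), 6 measured members overlap another gene, so their reads are uncertain: Zap70, Fyn, Ptprc, Ikzf1, Tcf7 and Cxcr6. 1 member, Cd8b1, was not found there by symbol.

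Groups, sex and stock came from the sample labels. Animals of a group differed by more than sampling noise (chi-square of at least 25.3 per degree of freedom over genes), and each was 1 replicate. For tests, edgeR 4.0.16 (R 4.3.3) was run with TMM scaling and its quasi-likelihood test on the 12639 genes reaching 0.5 CPM in 1 animal or more. A single fit held all 16 animals and no covariate, and p-values were adjusted by Benjamini-Hochberg over all genes. A gene was called at an adjusted p under 0.1 and a fold of at least 2. The stock test added stock to the group. Correlations used log2(TMM CPM + 0.5) and 100000 two-sided permutations, in Python 3.11.15 (scipy 1.17.1, numpy 2.4.6, pandas 2.3.3, matplotlib 3.10.9). The code for edgeR calls and for Pc was run on simulated data as a check of the calculation only. Those data had 1 setting of spread for every gene and no effect of stock, sex or single animals. They do not show how many differences would be found in these livers.

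The members and lists were chosen with earlier results of these data known. Named were members with an adjusted p under 0.1, defining genes of each cell type, and genes of other lists by the same threshold; genes of highest value in single animals, Ikzf1, Tcf7 and Ets1 were named after their values were seen. Alternatives tried were RLE size factors, DESeq2 1.42.0, other thresholds and filters, a covariate for stock or sex, males or BW animals alone, only the groups compared, and each animal left out in turn. Added after seeing the data were BW animals without 35990, the ratio of Cd79b to Cd79a, the antigen receptor constant genes, counts without Cd79b, shares of all genes in BW animals alone, Pc with only genes of at least 5 counts on average, and Pc on CPM with animals left out. Few reads limit the precision of many members, beside the spread between animals.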

Additional observations from a re-analysis of the deposited data

Results flagged for a closer look

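Of 96 sets of values (32 measured members in each of 3 groups), 7 had 1 animal far from the others of its group by Dixon's test. For independent sets of normally distributed values, chance gives about 1 in 20, or 4.8. These sets share the same animals, so 4.8 is only a rough guide. All 7 were the highest animal of the group. In S, 3 of them were animal 35990, at 6.20 CPM for Blnk (65 reads, next animal 1.69 CPM), 20.7 for Lcp2 (217 reads, next 7.41) and 33.6 for Ptprc (352 reads, next 13.2). The other in S was Cd79b in 35955, at 1.83 CPM (21 reads, next 0.853). In NS they were Btk in 35930, at 4.85 CPM (40 reads, next 3.19), and Cd3e in 10865, the SM2 animal, at 2.14 CPM (17 reads, next 0.790). In C it was Ccl5 in 35998, at 6.10 CPM (39 reads, next 1.80).

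Blnk, Lcp2 and Ptprc are also used by macrophages, whose marker sum was highest in 35990 as well. The part of those cells in the 3 values was not tested.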

How the results depend on the processing

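Lcp1 was the member whose call in S vs C held in every alternative run, whereas the count of 3 called higher became 1 with sex as a covariate and 1 in males alone, where 1 (Jchain) was called lower. Both of these runs rest on the 2 S males. The count of 3 ranged from 2 to 5 with single animals left out, the 5 without C animal 35998. Without a fold limit the 3 became 5 with stock as a covariate, 5 in BW animals alone, 5 with DESeq2, 1 with sex as a covariate and 1 in males alone (Jchain again 1 lower), and 2 to 6 with single animals left out. The median of the members with single animals left out ranged from 0.136 to 0.599 (S vs C) and from 0.037 to 0.563 (S vs NS), both lowest without 35990. In BW animals without 35990 it was -0.017 (S vs C) and 0.120 (S vs NS), and with sex as a covariate and in males alone 0.067 (S vs NS). By stock, 0 to 2 members were higher and 0 to 5 lower with single animals left out, and 2 were higher in males alone (Coro1a and Cxcr6). Lck and Cd8b1 did not pass in males alone. In BW animals alone, all animals of the first group were higher for 4 members in S vs C (3.81% of all genes), for 1 in NS vs C (1.24%), and for 3 when S was set against NS (2.21%). Cd79b, measured only through HFD, is 1 of the 4. Members with Pc below -0.2 (S vs C first, NS vs C next, S vs NS last) were 9, 6 and 2 on CPM by total count, 9, 7 and 2 on TMM-normalized CPM, and 2, 1 and 0 by Spearman's rho. In BW animals alone the first was 2 and the last 0, and with genes of at least 5 counts the last was 0. With single animals left out they were 1 to 6, 0 to 4 and 0 to 3 on counts, and 2 to 11, 3 to 9 and 1 to 4 on CPM. On CPM in BW animals alone the first was 14 and the last 1. The correlation of Cd3e and Cd3d had an adjusted permutation p of 0.021 after subtraction of group means (r = 0.684) and of 0.33 in BW animals alone. The cause of these moves was not tested. No paired analysis was possible because the animals carry their own numbers and are not matched across groups. Over single genes, 2017 of the values with 1 animal left out were on the same side of the threshold, 8 passed it newly and 23 no longer did; of the other alternatives these were 1033, 11 and 6. Members with a few reads per animal could have differed without passing the test at this depth.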
